A study of Mus musculus with 8 samples.

Results

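Oligo1b is one of 8 clusters into which the study's authors divided the oligodendrocytes of aged mouse brain, and here it is every cell that carries this name in their annotation. The other clusters are Oligo1a, Oligo1c, Oligo2a, Oligo2b, Oligo2c, age-related oligodendrocytes (ARO) and interferon-responsive oligodendrocytes (IRO). These were 1880 of 15604 oligodendrocytes and of 29853 cells in all, spread over 8 droplet libraries. No expression value was used to choose the cells here, but the name rests on clustering of the same transcriptomes. Differences in level between Oligo1b and the other clusters are therefore given as descriptions with no test. Only tissue and genotype differences were compared between clusters by a test, under the same limit.

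Oligodendrocytes wrap axons in myelin, a membrane built from cholesterol, galactolipids and a small set of abundant proteins, and they also feed axons with metabolites and clear potassium and glutamate around them. Mature oligodendrocytes of gray matter sit beside neuronal cell bodies and myelinate sparsely, while those of white matter tracts line up along densely myelinated axons. The mature cells of the mouse brain fall into states that grade into each other, one end marked by Ptgds, which makes prostaglandin D, and the other by Klk6 and Hopx.

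All libraries came from male mice aged 24 months, which had been perfused before gray matter (frontal cortex) and white matter (optic tract, medial lemniscus and corpus callosum) were dissected, dissociated with papain in the presence of actinomycin D and sorted as live cells. There were 2 wild-type (WT) gray matter, 2 WT white matter, 1 Rag1KO gray matter and 3 Rag1KO white matter libraries. By the sample titles, the libraries numbered 1 were batch 1 of their genotype, and the other libraries were batch 2. The methods describe separate processing of the batches of each genotype, with other filters per cell. WT mice were of strain C57BL/6 by the labels and C57BL/6J by the methods. Rag1KO mice are homozygous for a disrupted Rag1, the recombinase gene without which T and B cells do not mature; their strain is labelled NOD.129S7(B6)-Rag-1tm1Mom/J, while the study's methods place the same allele on the C57BL/6J background, and the samples do not settle which holds. The WT gray and white matter libraries of one number were made from one pool of mice, as were Rag1KO gray 1 and white 1, and Rag1KO white 2 and white 3 held 1 mouse each, by the study's list of animals; the protocol instead describes tissue samples combined for each library. The 2 genotypes were prepared as separate experiments, and the methods give other Cell Ranger versions and other limits on unique molecular identifiers (UMIs) per cell for each. Genotype, experiment and any difference of strain can therefore not be told apart.

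The Oligo1b sums held 651074 to 4970857 UMIs per library, with a median of 8938 to 13243 UMIs per cell. Mitochondrial genes took 4.05% to 7.64% of them. One cell barcode occurred in the Oligo1b cells of more than 1 library, and 21 did so among all oligodendrocytes over 28 pairs of libraries. Rag1 reads cannot check the genotype here, because the 3′ end of the gene is counted and the deleted stretch is not known from the files: the level was 0 to 1.16 CPM (counts scaled to an equal total in every sum) in the 4 WT libraries and 1.17 to 4.98 CPM in the 4 Rag1KO libraries. Summed T cell markers stood at 0 to 10.8 CPM in WT and at 0 to 0.62 CPM in Rag1KO Oligo1b cells.

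Features of single libraries touched many of the values below. Both libraries of WT pool 1, labelled batch 1 in their titles, stood apart from the other 6. In WT, mouse pool and batch cannot be told apart. Cdkn1a, a cell cycle inhibitor induced by p53 and by glucocorticoids, was at 478 CPM in WT gray 1 and 1335 CPM in WT white 1, against 0 to 1.95 CPM in the other 6 libraries. Sgk1, a glucocorticoid-induced kinase, was at 1583 and 2984 CPM in pool 1 against 83.3 to 603 CPM elsewhere. Of 14 listed glucocorticoid-response genes, 12 were higher in both pool 1 libraries than in all the others (85.7%), against 918 of 7824 genes (11.7%) with a mean of at least 10 CPM. Summed microglial markers were also higher in Oligo1b cells of pool 1, at 1152 and 658 CPM, against 104 to 371 CPM elsewhere. The part of either in the results was not tested, and the main counts are therefore given with and without these libraries. Without both, 1 WT library per tissue is left, and the spread then comes from the Rag1KO white matter libraries alone. Fits without a single WT library likewise leave 1 in its group.

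**Figure D1:**
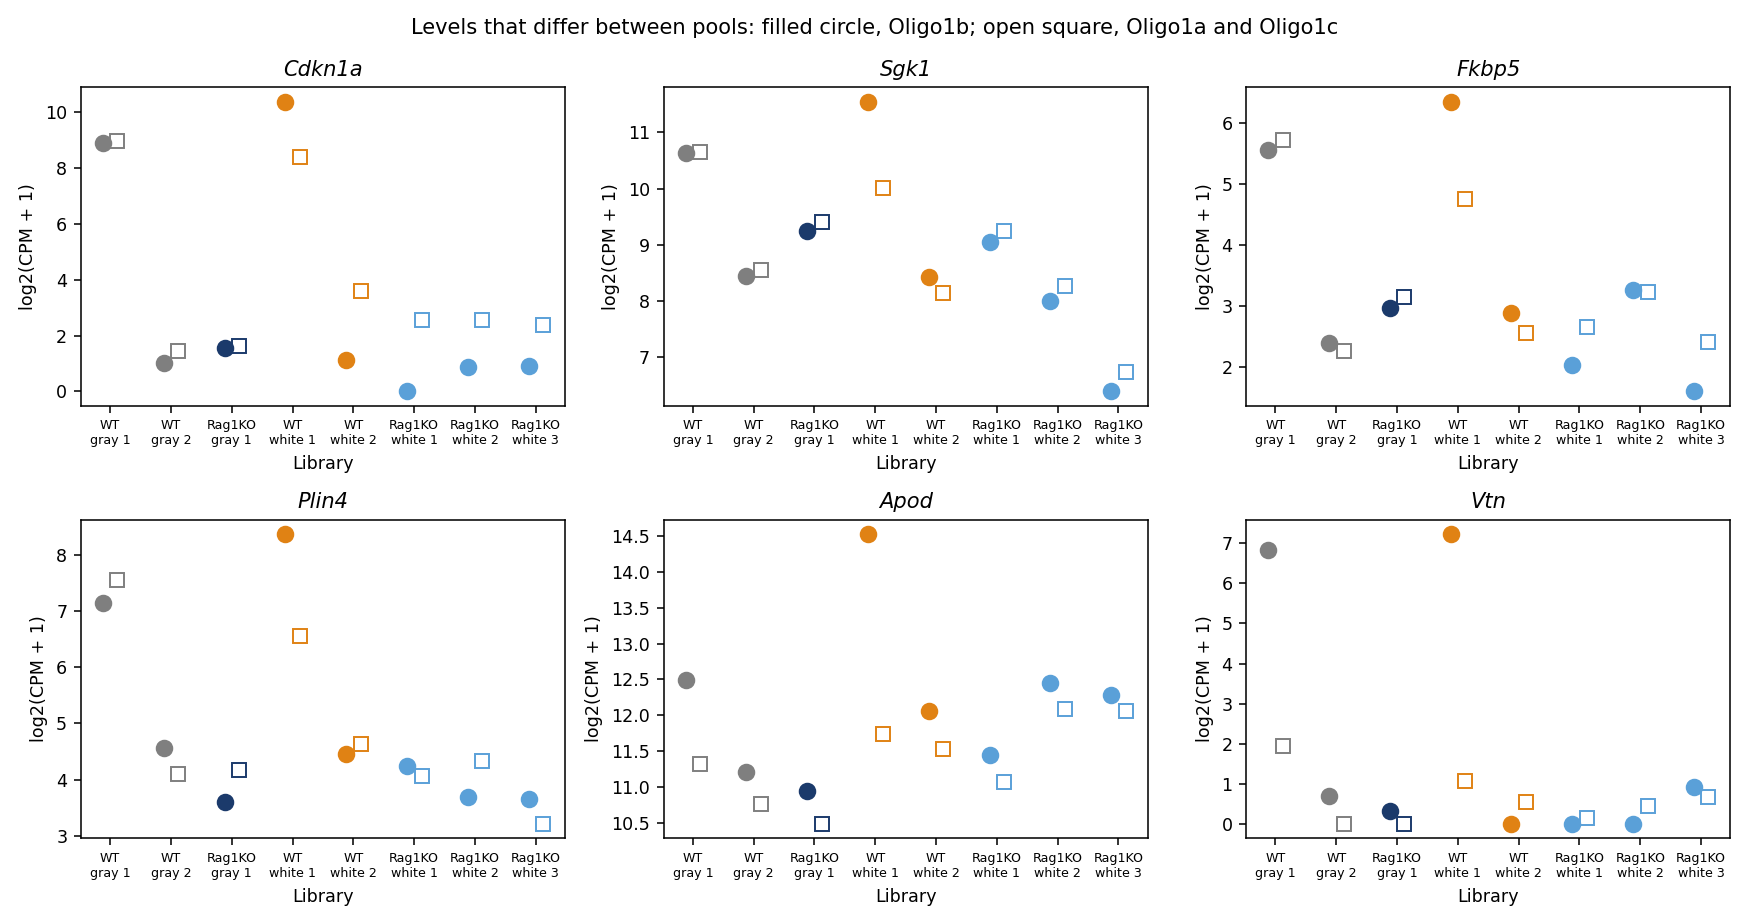
Level as log2(CPM + 1) of 6 genes in each of the 8 libraries, for the summed Oligo1b cells (filled circles) and for Oligo1a with Oligo1c (open squares). In Oligo1b, Cdkn1a and Vtn are near 0 outside the 2 libraries of WT pool 1, and Sgk1, Fkbp5 and Plin4 are highest in those libraries.

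In addition, 1 of the 164 Oligo1b cells of WT white 2 held all 593 UMIs of Chgb in that library's Oligo1b cells. Chgb encodes a protein of neuroendocrine secretory granules. The same cell held all 274 UMIs of Chga, all 96 of Cck, and 53 of the 57 of Nnat, among 11204 UMIs in total. Counts of genes called between the genotypes are given with and without this cell.

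Oligo1b made up a larger part of the oligodendrocytes in gray matter than in white matter, in both genotypes. Oligo2b was split the same way, at 24.1% to 30.2% in the gray and 9.72% to 17.9% in the white libraries. Oligo2c, ARO and IRO each had 0 to 5 cells in a gray library, and shares of one total are not independent. Its share was 25.7% in WT gray 1 (95% exact binomial interval 20.7% to 31.2%) and 39.1% in WT gray 2 (36.3% to 42.1%). In WT white matter it was 11.9% in library 1 (9.22% to 15.1%) and 3.99% in library 2 (3.42% to 4.64%). The gray libraries lay above the white ones, and the 2 libraries of each tissue differed by more than their counting intervals, which cover counting error only. The gray matter mean was 32.4% ± 9.50 (SD, n = 2), and white matter averaged 7.97% ± 5.62 (SD, n = 2). On the log2 scale the share was lower by 2.16 (SE 0.57) in white matter, with an adjusted p of 0.00761 from edgeR's quasi-likelihood test on the cell counts of the 8 clusters, Benjamini-Hochberg adjusted over the clusters. With 2 libraries against 2, the two-sided exact permutation test of the difference of 24.5 percentage points gave p = 0.333, the smallest it can give. The call was lost when Oligo1b was counted among Oligo1 cells alone (a log2 difference of -1.56, adjusted p = 0.053) and when WT gray 2 was left out (-1.81, adjusted p = 0.0639). Without both libraries of WT pool 1, which left 1 WT library per tissue, the difference was -3.29.

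In Rag1KO mice Oligo1b took 43.2% of the oligodendrocytes of gray matter (40.2% to 46.3%). In white matter it took 5.66% (4.87% to 6.54%), 11.5% (9.95% to 13.1%) and 8.55% (7.69% to 9.48%), with a mean of 8.56% ± 2.90 (SD, n = 3). All 3 white matter libraries lay below the gray one. The log2 difference of white from gray matter was -2.34 (SE 0.55, adjusted p = 0.0049 by the same edgeR test), with 1 gray library, which was assumed to vary like the other groups. With all cells as the denominator it was -1.44 (adjusted p = 0.0201), and among Oligo1 cells -1.82. Across genotypes the white matter shares overlapped: Rag1KO minus WT was 0.21 on the log2 scale (SE 0.51, adjusted p = 0.784) and 0.589 percentage points (two-sided exact permutation p = 1.0, where the smallest possible is 0.1). This sign was not stable: the log2 difference was -0.037 with all cells as the denominator and -0.49 without WT white 2. These shares are counted after a live-cell sort and dissociation, and neither step's recovery of the clusters is known.

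**Figure D2:**
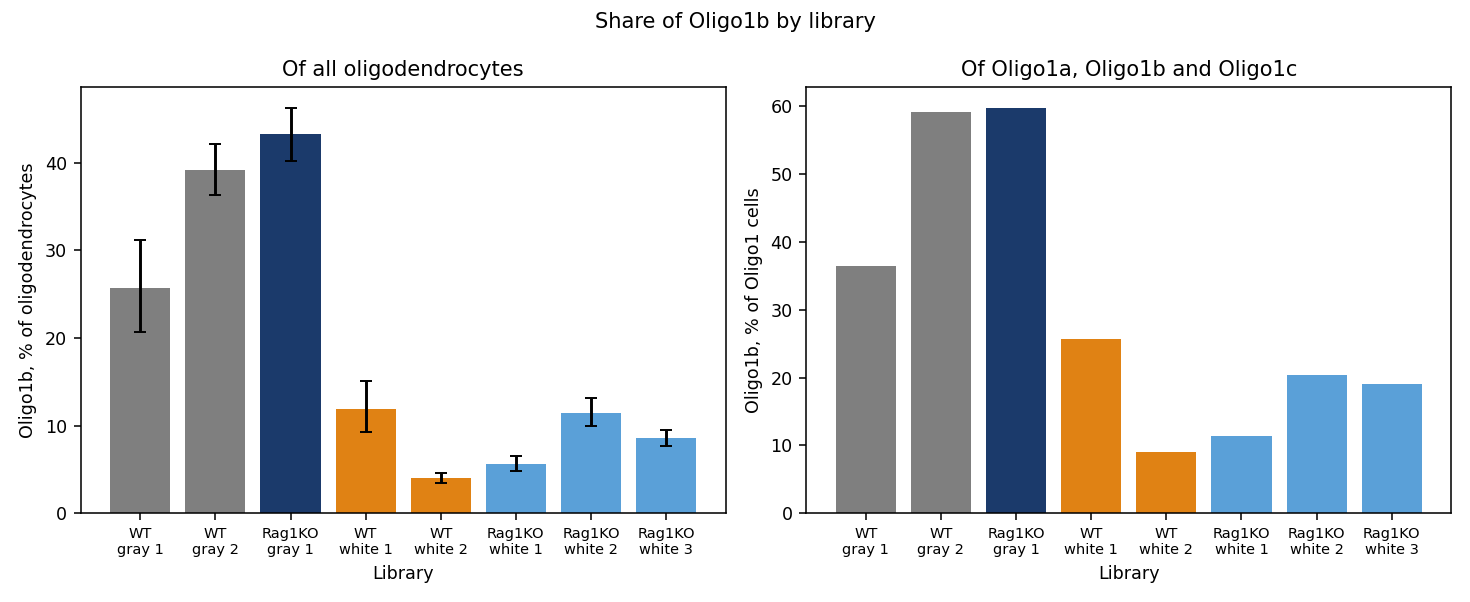
Share of Oligo1b among oligodendrocytes (%) in each of the 8 libraries, grouped by genotype and tissue, with 95% exact binomial intervals as bars. The 3 gray matter libraries sit between 25.7% and 43.2%, and the 5 white matter libraries between 3.99% and 11.9%.

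Few genes were higher in Oligo1b in every library. Against the other oligodendrocytes, each taken within its own library, 90 of 3434 genes with a level of at least 50 CPM (2.62%) were higher in Oligo1b in all 8 libraries and 258 (7.51%) were lower. Among the highest by median log2 ratio were the mitochondrial enzyme gene Ogdhl (1.42, from 0.70 to 2.55 over the libraries), Ptgds (1.31, 0.84 to 1.96) and Cyp2j6 (1.05), an arachidonic acid epoxygenase family member. Further ones were the metallothionein Mt3 (0.82), the ion channel gene Hcn2 (0.54), the amino acid transporter Slc38a2 (0.51), and Glul (0.51), glutamine synthetase, which turns glutamate and ammonia into glutamine. Nudt4 (0.52), Spock1 (0.41) and Pex5l (0.40), whose product binds HCN channels, completed the 10. The lowest were Klk6 (-3.10), S100b (-2.14), Hopx (-1.27), Enpp6 (-0.96), Marcksl1 (-0.79) and Aven (-0.78). Klk6 and Hopx are markers of the state opposite to Ptgds, and Enpp6 is a choline phosphodiesterase best known from newly formed oligodendrocytes.

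Taken cluster by cluster, only clusters with at least 10 cells in a library were ranked. In the gray libraries Oligo2c, ARO and IRO fell below this number and were left out. Slc38a2 and Spock1 were highest in Oligo1b in 8 of 8 libraries, and Glul, Cyp2j6 and Pex5l in 7. Glul had a median over libraries of 3114 CPM in Oligo1b, 1684 in Oligo1a, 1706 in Oligo1c, 2547 in Oligo2a and 2562 in Oligo2b. Ogdhl was highest in Oligo1b in 6 of 8 libraries, at a median of 110 CPM against 48.9 CPM in Oligo1a, 28.3 CPM in Oligo1c and 49.9 CPM in Oligo2b. The 2 genes taken as markers of these cells, Ptgds and Mog, did not single them out. Ptgds was highest in Oligo1b in 1 of 8 libraries, since Oligo1a had a median of 17499 CPM, Oligo1b 15840 CPM and Oligo1c 5743 CPM. Mog, a myelin surface protein and general marker of mature oligodendrocytes, had a median of 1089 CPM in Oligo1b and was lower there than in Oligo2a and Oligo2b in 8 of 8 libraries. Both were expressed in every library, so the cells are oligodendrocytes by these markers, and the name Oligo1b is kept as the authors' cluster name.

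**Figure D3:**
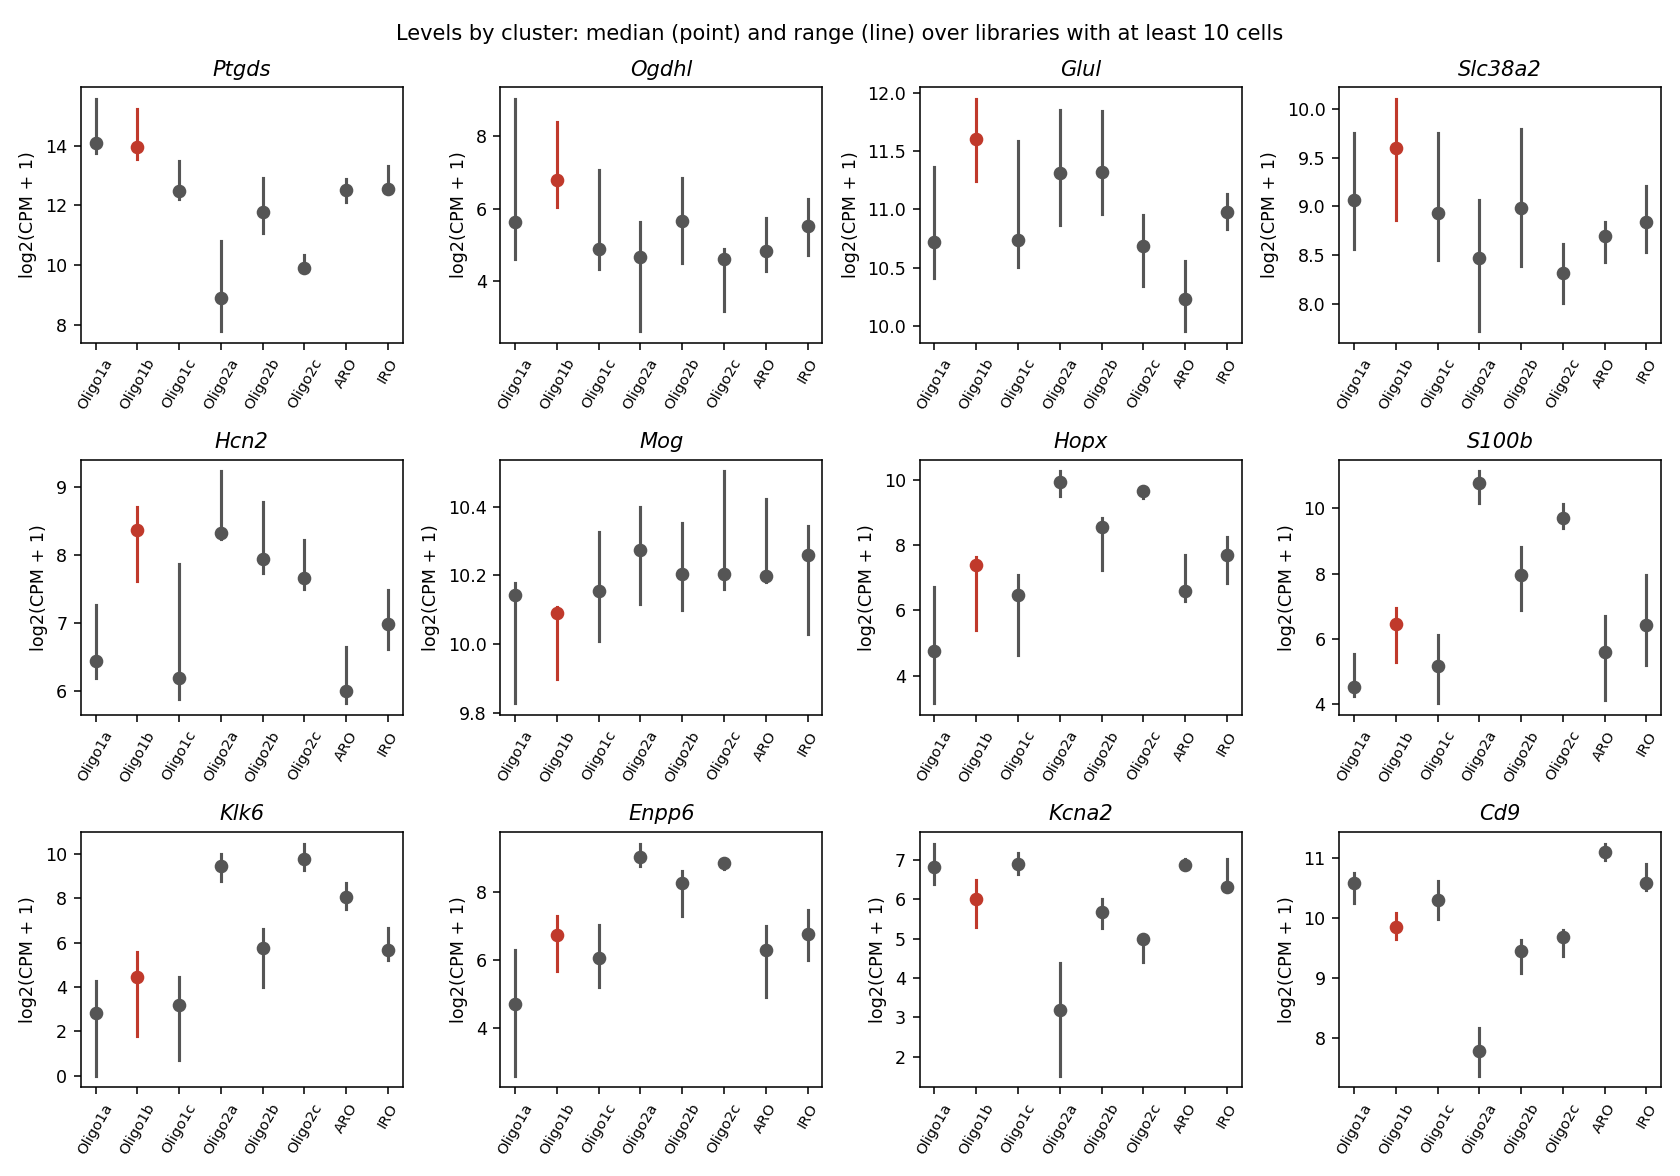
Level as log2(CPM + 1) of 12 genes in the 8 oligodendrocyte clusters, as median (point) and range (line) over libraries in which the cluster had 10 cells or more, Oligo1b in red. Glul and Slc38a2 have their highest median in Oligo1b, whereas Hopx, S100b and Enpp6 in Oligo1b lie above Oligo1a and Oligo1c and below Oligo2a and Oligo2b.

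Within Oligo1, most of the Oligo2 genes that could be read were higher in Oligo1b than in its neighbours. Against Oligo1a and Oligo1c, 141 of 3423 genes with a level of at least 50 CPM (4.12%) were higher in Oligo1b in all 8 libraries and 255 (7.45%) were lower. Of 11 Oligo2 genes at that level, from a list the study drew from other cells read by Smart-seq2, 10 were higher in Oligo1b than in Oligo1a and Oligo1c in all 8 libraries, with a median log2 ratio of 0.80 against -0.03 over all genes. The same list read against all other oligodendrocytes gave 8 of 14 genes lower in all 8 libraries and none higher, where 7.51% and 2.62% of all genes were. Hopx had a median of 25.8 CPM in Oligo1a, 165 CPM in Oligo1b, 87.9 CPM in Oligo1c, 984 CPM in Oligo2a and 373 CPM in Oligo2b. S100b, a calcium-binding protein, followed the same order, at 21.8, 86.8, 35.0, 1736 and 246 CPM. Hopx, S100b, Enpp6, the lipid droplet coat gene Plin3 and Aven each lay above Oligo1a and Oligo1c and below Oligo2a and Oligo2b in 8 of 8 libraries. Hcn2, by contrast, was at 329 CPM in Oligo1b and 321 CPM in Oligo2a, with 86.2 CPM in Oligo1a and 71.5 CPM in Oligo1c. It lay above Oligo1a and Oligo1c in 8 of 8 libraries, but Oligo1b was the highest of the ranked clusters in 1 of 8.

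Among the genes lowest in Oligo1b against Oligo1a and Oligo1c were the potassium channel gene Kcna2 (median log2 ratio -0.86), Prickle1 (-0.84), Rap2a (-0.73), the ephrin receptor gene Epha4 (-0.64), the tetraspanin Cd9 (-0.58), Plekha1 (-0.56) and alpha-II spectrin, Sptan1 (-0.52). The medians of Oligo2a were lower again for Kcna2, at 63.8 CPM in Oligo1b and 8.1 CPM in Oligo2a, and for Cd9, at 926 and 219 CPM. Of 22 genes of the myelin sheath, 0 were higher and 7 lower in Oligo1b in all 8 libraries, with a median log2 ratio of -0.05, where 4.12% and 7.45% of all genes were higher and lower and their median was -0.03. Of 10 cholesterol synthesis genes at the level asked, 0 were higher and 0 lower in every library.

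The level of these genes also varied among the Oligo1b cells of the 8 libraries. Ogdhl was at 335 and 135 CPM in WT gray, 301 and 66.2 CPM in WT white, 164 CPM in Rag1KO gray, and 84.7, 65.4 and 64.6 CPM in Rag1KO white matter. Ptgds was at 29351 and 16014 CPM in WT gray, 37856 and 12012 CPM in WT white, 18251 CPM in Rag1KO gray, and 15666, 13309 and 13167 CPM in Rag1KO white matter. For both genes the 2 libraries of WT pool 1 were the highest, and gray and white matter overlapped. Mog ranged from 953 to 1103 CPM over the 8 libraries.

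The next question was whether Oligo1b cells of white matter differ from those of gray matter. In WT mice 3 of 10161 genes passed, all higher in white matter (0.0295%), by edgeR's quasi-likelihood test with Benjamini-Hochberg adjustment at 0.05, and 386 had an unadjusted p under 0.05. DESeq2 called 6. The WT white matter libraries of this comparison also serve in the comparison of genotypes, and the Rag1KO white matter libraries serve in that and in the Rag1KO tissue comparison.

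Hopx, a homeodomain protein without DNA binding of its own (chromosome 5, 77086988 to 77115121, minus strand, GRCm38), was at 58.0 and 59.7 CPM in WT gray and at 199 and 178 CPM in WT white matter. In Rag1KO it was at 40.9 CPM in gray and 169, 181 and 162 CPM in white matter. Every white matter library of either genotype lay above every gray one. The log2 difference was 1.68 in WT (SE 0.17, adjusted p = 0.00727 by edgeR) and 2.06 in Rag1KO mice (SE 0.21, adjusted p = 0.0011), and the difference between the 2 was 0.38 (adjusted p = 1.0). Every gene test in Rag1KO tissue sets 3 white libraries against 1 gray library, whose spread was assumed to be that of the other groups.

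Serpina3n, a secreted protease inhibitor of injury responses (chromosome 12, 104406729 to 104414329, plus strand), was at 25.0 and 14.0 CPM in WT gray and at 86.5 and 77.8 CPM in WT white matter. Rag1KO gray had 9.48 CPM, and Rag1KO white 51.0, 42.8 and 60.5 CPM. Gray and white matter did not overlap in either genotype. The log2 difference was 2.29 in WT (SE 0.29, adjusted p = 0.0249) and 2.44 in Rag1KO mice (SE 0.33, adjusted p = 0.019). C4b, a complement component that often rises with Serpina3n, was at 167 and 76.5 CPM in WT gray, 640 and 555 CPM in WT white, 20.4 CPM in Rag1KO gray, and 167, 263 and 391 CPM in Rag1KO white matter. Its log2 difference in Rag1KO mice, against the single gray library, was 3.76 (SE 0.56, adjusted p = 0.04). In WT mice it was 2.40 with an adjusted p of 0.199. Once the mouse pool entered the fit as a block it was 2.47 with an adjusted p of 4.3e-08, but that fit has only 1 residual degree of freedom. The difference between the genotypes in this tissue effect was 1.36, with an adjusted p of 1.0.

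The same split between tissues was seen outside Oligo1b. In Oligo1a and Oligo1c, Hopx was at 16.2 to 25.4 CPM in the 3 gray and 59.7 to 110 CPM in the 5 white matter libraries, and Serpina3n at 3.33 to 11.3 and 50.3 to 121 CPM. In cells with microglial markers Hopx was at 10.8 to 38.5 CPM in gray and 17.6 to 45.3 CPM in white matter, which overlapped. These cells also held reads of Serpina3n, at 0.17 to 0.66 CPM in the 3 gray and 3.73 to 48.2 CPM in the 5 white matter libraries, and of C4b, at 6.61 to 22.7 and 34.5 to 178 CPM. The part of free RNA in the Oligo1b values was not tested.

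The third WT call was Ttr, transthyretin, the leading product of the choroid plexus. It was at 0 and 1.62 CPM in WT gray and 13.9 and 21.5 CPM in WT white matter, a log2 difference of 3.73 (SE 0.50, adjusted p = 0.0325 by edgeR). In Rag1KO mice it was at 6.57 CPM in gray and 33.0, 24.7 and 24.5 CPM in white matter (2.04, adjusted p = 0.218). Reads of Ttr lay at 16.2 to 425 CPM in the white matter cells with microglial markers and at 0 to 11.9 CPM in those of gray matter, and Ttr in Oligo1b exceeded its level in these cells, which should lack it, in WT white 2 alone. Only 1 of the 4 listed choroid plexus genes passed the filter on low counts, and their summed level was 1.32 to 7.78 CPM in gray and 13.9 to 33.6 CPM in white matter. No change of the gene in Oligo1b is read from this.

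**Figure D4:**
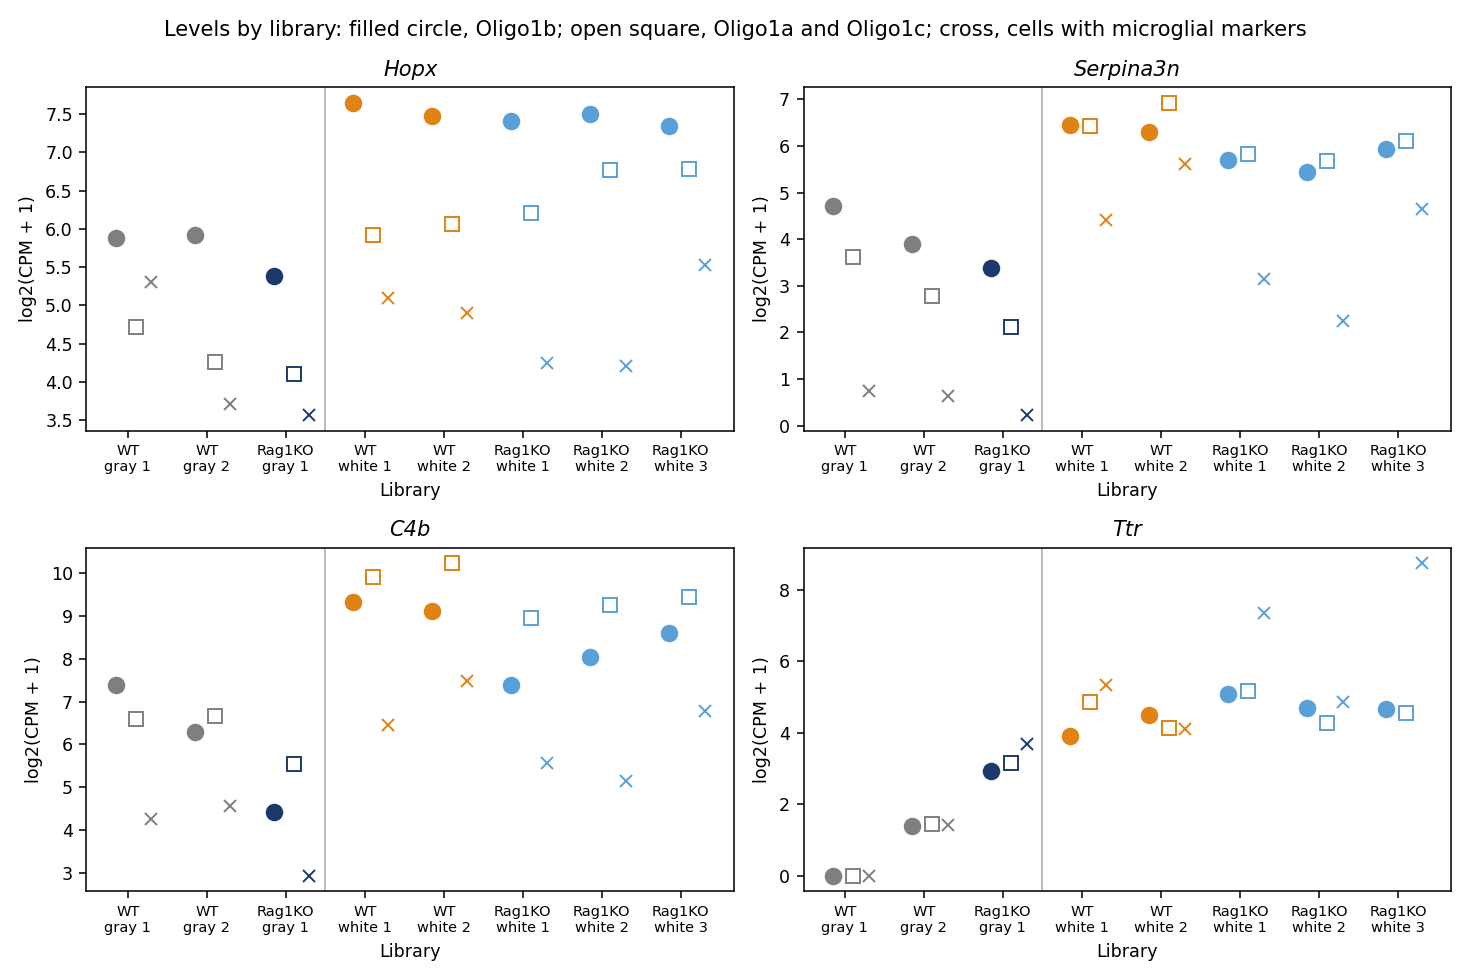
Level as log2(CPM + 1) of Hopx, Serpina3n, C4b and Ttr in each of the 8 libraries, for Oligo1b (filled circles), Oligo1a with Oligo1c (open squares) and cells with microglial markers (crosses), gray matter left of the line. In Oligo1b, Hopx, Serpina3n and Ttr are higher in all 5 white matter libraries than in all 3 gray ones, and the microglial-marker cells reach or pass Oligo1b for Ttr except in WT white 2.

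The WT result rests on few libraries. Hopx kept its adjusted p under 0.05 in every fit but 3: those without WT gray 1 or without WT gray 2, and the one restricted to the groups compared. Serpina3n lost its WT call in these 3 and without any 1 of the Rag1KO white matter libraries, and Ttr in these and without WT white 2 as well. In Rag1KO mice C4b lost its call without white 2 or white 3, and Serpina3n without white 1 or white 3. The number of calls in WT ran from 0, without either WT gray library, to 79 without WT white 2, and was 14 without both libraries of pool 1. With the mouse pool as a block, a fit with 1 residual degree of freedom, 42 genes passed (0.413%), 32 higher (0.315%) and 10 lower (0.0984%) in white matter, Chgb with its single cell among them. Of these 42, 36 had the same sign of difference in Rag1KO mice (85.7%), against 5672 of 10161 genes (55.8%) over all.

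Enpp6, Klk6 and Hcn2, all named above for setting the clusters apart, were called with the block. Enpp6 was at 64.6 and 61.6 CPM in WT gray, 88.1 and 155 CPM in WT white, 50.3 CPM in Rag1KO gray, and 124, 141 and 153 CPM in Rag1KO white matter. Every white library lay above every gray one, with a WT log2 difference of 1.06 (adjusted p = 0.0105 with the block and 0.623 without). Klk6, a secreted serine protease, was at 15.8 and 2.43 CPM in WT gray and at 12.4 and 46.4 CPM in WT white matter, so the groups overlapped although the difference of 2.91 had an adjusted p of 0.00793 with the block. Hcn2 was at 409 and 391 CPM in WT gray, 196 and 251 CPM in WT white, 418 CPM in Rag1KO gray, and 365, 247 and 293 CPM in Rag1KO white matter. It was lower in every white library than in every gray one (-0.80 in WT, adjusted p = 0.034 with the block and 0.651 without).

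Lower in white matter with the block were also Slc1a2, the glutamate transporter of astrocytes, and Sparcl1, an astrocyte-secreted matrix protein. Slc1a2 was at 245 and 193 CPM in WT gray, 15.5 and 64.4 CPM in WT white, 170 CPM in Rag1KO gray, and 50.4, 84.3 and 139 CPM in Rag1KO white matter. Its WT log2 difference was -2.21 (adjusted p = 5.71e-05 with the block and 0.602 without). Reads of Slc1a2 were also found in cells with microglial markers, at 84.3 to 589 CPM in gray and 14.1 to 103 CPM in white matter. All 10 listed astrocyte markers had log2 differences below 0 in WT (median -1.27, against -0.01 over all genes). Their summed level was 359 to 472 CPM in gray and 116 to 202 CPM in white matter. Of the 10, 1 was itself called lower with the block, where 0.0984% of all genes were, so this sum is not separate from such calls. The part of these markers in Slc1a2 and Sparcl1 was not tested.

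The study's cluster lists were also read across the 3 gray and 5 white matter libraries. Of 14 Oligo1 genes of the study's Smart-seq2 list, 0 were higher and 6 lower in all 5 white than in all 3 gray libraries, where 1.78% and 2.89% of all 10161 genes were. Of 47 Oligo2 genes, 10 were higher and 1 was lower. Of 82 genes of age-related oligodendrocytes, a white matter state marked by Serpina3n and C4b, 11 were higher and 0 lower. The 22 myelin genes had 0 in either direction. In the WT test itself, 0 of the Oligo1 list, 0 of the Oligo2 list and 1 of the age-related list passed, where 0.0295% of all genes did, with median log2 differences of -0.62, 0.46 and 0.64 against -0.01 over all genes. With the mouse pool as a block 2 genes of the Oligo1 list were lower, and 6 of the Oligo2 and 5 of the age-related list were higher, where 0.0984% of all genes were lower and 0.315% higher. Of the 26 genes that the naming rule picked for setting Oligo1b apart, 2 were higher in all white libraries (Hopx and Enpp6), 4 were lower (Hcn2, Nudt4, Pex5l and Rap2a) and 20 overlapped.

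In Rag1KO mice, with 1 gray library and a spread borrowed from the other groups, 7 genes passed between the tissues (0.0689%), 3 higher (0.0295%) and 4 lower (0.0394%) in white matter. With the mouse pool as a block 18 passed (0.177%), 9 higher (0.0886%) and 9 lower (0.0886%), but white 2 and white 3 have no gray partner, so this fit compares white 1 with gray 1 alone, with no replicate of the pair. The 3 higher ones were Hopx, Serpina3n and C4b. The 4 lower ones were the haemoglobin genes Hba-a1, Hba-a2, Hbb-bs and Hbb-bt, with log2 differences of -3.72 to -3.43. Summed blood genes were at 606 CPM in the Oligo1b cells of Rag1KO gray 1, 44.4 to 72.8 CPM in those of Rag1KO white matter and 0 to 2.83 CPM in WT, and at 632 CPM in Oligo1a and Oligo1c of Rag1KO gray 1. One WT gray library had 5672 CPM in the latter clusters. In cells with microglial markers the blood genes summed to 7959 CPM in Rag1KO gray 1, 648 to 3563 CPM in Rag1KO white matter and 0 to 4.47 CPM in WT. The part of free RNA in the Oligo1b values of these genes was not tested. No gene passed for a difference between the genotypes in the tissue effect (0.0%) by edgeR's test or by DESeq2, with 169 at an unadjusted p under 0.05.

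The comparison of genotypes in white matter asks what the lack of lymphocytes, and all that came with the separate experiment, did to Oligo1b. In white matter 57 of 10161 genes passed (0.561%), 45 higher (0.443%) and 12 lower (0.118%) in Rag1KO. Those with the largest differences were near 0 in one genotype. Atp6v0c, a subunit of the proton pump of lysosomes (chromosome 17, 24163866 to 24169702, minus strand), was at 2.64, 3.24, 3.09 and 1.74 CPM in the 4 WT libraries and at 527, 531, 570 and 553 CPM in the 4 Rag1KO libraries, gray matter first in each. Its log2 difference in white matter was 8.03 (SE 0.28, adjusted p = 1.94e-08 by edgeR). Ptp4a1, a membrane-bound phosphatase on chromosome 1, went the other way, from 480, 467, 362 and 476 CPM in WT to 5.59, 1.87, 1.65 and 0.88 CPM in Rag1KO libraries (-8.19, SE 0.25, adjusted p = 1.06e-08). The levels of both genes were split by genotype in gray as in white matter. In the annotation GENCODE vM21 the symbol Ptp4a1 stands for 2 genes at nearly the same position, as do the symbols Fam220a and Hgs below.

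Others higher in Rag1KO were the nucleoside diphosphate kinase gene Nme2 (7.08), Rnasek (7.05), Gng10 (6.43), the mitochondrial ribosome gene Mrpl53 (5.60) and Pakap (5.60). Further ones were Kctd16 (5.48), the glycosyltransferase genes Galnt2 (5.36) and B3gnt2 (5.27), and Thtpa (5.36). Gng10, Kctd16, Galnt2, B3gnt2 and Thtpa averaged only 0.29 to 0.87 CPM in WT white matter. With a library left out, the differences of these 5 genes lay between 4.86 and 10.1. Lower were the long noncoding AC160336.1 (-5.55), Amd2 (-5.42), Fam220a (-5.37), Rps6ka4 (-4.34) and the coronin Coro1b (-3.94). The mRNA export factor Nxf1 (-2.40), Rnf149 (-2.11) and Taf6l (-2.14) were also lower. Taf6l kept its call in 5 of 8 fits with a library left out. With no count at all in WT white matter, Hgs was at least 41.4-fold and Hbb-bs at least 24.9-fold higher in Rag1KO, taking 3 counts over the group as the floor. Cck and Chgb were among the 12 lower genes and rest on the single cell described above. Without that cell 56 genes passed.

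The same genes were split in other cells of the same libraries. Of the 57, 54 (94.7%) did not overlap between the genotypes, in the same direction, in cells with microglial markers from the same white matter, against 16.4% of all genes, and the exceptions were Chgb, Cck and Gm43713. In gray matter Oligo1b, 56 of 57 (98.2%) had the Rag1KO library outside both WT libraries in the direction of white matter, against 40.9% of all genes. Of the 57, 37 (64.9%) overlap another gene on the same strand in GENCODE vM21, against 2466 of 10158 genes tested (24.3%). Reads in such overlaps can be assigned to either gene or to none, depending on the annotation. The study's methods do not name the annotation behind these counts, and the part of such overlaps in the calls was not tested. The version of the counting software, the experiment, the genotype and any difference of strain cannot be told apart in these libraries.

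**Figure D5:**
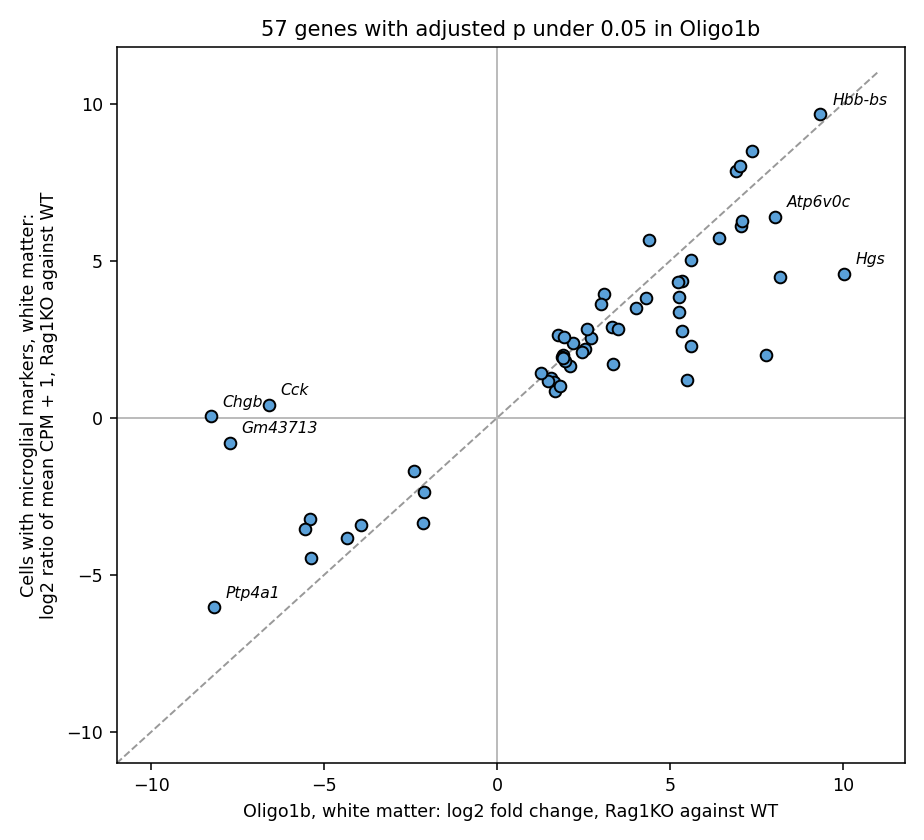
Log2 fold change between Rag1KO and WT white matter in Oligo1b (horizontal axis) for the 57 genes that passed, set against the log2 ratio of mean CPM + 1 in cells with microglial markers of the same libraries (vertical axis); the dashed line marks equality. The genes lie in the same direction on both axes except Chgb and Cck, which rest on 1 cell, and Gm43713 is nearer 0 in the microglial-marker cells.

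C4b and Serpina3n did not pass between the genotypes. C4b had a log2 difference of -1.08 (adjusted p = 0.428) and Serpina3n of -0.61 (adjusted p = 0.574). Both were lower in all 3 Rag1KO than in both WT white matter libraries, but the share of all genes split this way was not counted. Both genes were chosen for this comparison after their values were seen. Interferon-response genes, whose products answer signals from T cells among others, had 0 of 10 members called and a median difference of -0.50, with 3 of 10 above 0. Over all genes tested 0.561% were called, 49.7% were above 0 and the median was -0.002. The summed level of the interferon-response list overlapped between the genotypes in white matter, at 429 to 431 CPM in WT and 367 to 442 CPM in Rag1KO. The 22 myelin genes had 0 called and a median of 0.05. The blood list had 4 of 4 called, all higher, and the Oligo2 list 1 of 47 (Slc25a27, a mitochondrial carrier, 1.88). The 13 glucocorticoid-response genes tested had 0 called, with 0 of 13 above 0 and a median of -2.12; the part of WT white 1, where most of this list was high, was not tested. The count of called genes ran from 39 to 300 when libraries were left out in turn, with 300 without WT white 2, and was 82 without both libraries of WT pool 1.

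Whether these differences were larger or smaller in Oligo1b than in its neighbours was tested in a fit over Oligo1b and the sum of Oligo1a and Oligo1c, with the library as a block. The clusters come from the same transcriptomes. How cells were split between them in each group can shape these results, and its part was not tested. For WT tissue, 3 of 10958 genes passed (0.0274%), Plin3 and Ogdhl above 0 (0.0183%) and Cd9 below (0.00913%). All 3 were also picked by the naming rule for setting Oligo1b apart from Oligo1a and Oligo1c. Plin3 was at 167 and 139 CPM in gray and 175 and 220 CPM in white matter Oligo1b, whereas in Oligo1a and Oligo1c it was at 124 and 117 CPM in gray and 77.9 and 58.4 CPM in white matter. The difference of differences was 1.43 (SE 0.17, adjusted p = 0.000415 by edgeR), so that the gap between Oligo1b and its neighbours was wider in white matter. Without WT white 2 the difference of Plin3 was 0.89 (adjusted p = 0.0086), and the call was lost without WT gray 1 (1.44, adjusted p = 0.137), without WT gray 2 (1.26, adjusted p = 0.738) and when Oligo1b was set against all other oligodendrocytes (0.44, adjusted p = 0.566). The same order was seen in Rag1KO mice, with 114 CPM in gray and 126 to 155 CPM in white matter for Oligo1b, against 92.1 and 70.3 to 73.5 CPM for Oligo1a and Oligo1c. Neither C4b (-0.89, adjusted p = 0.491) nor Serpina3n (-1.64, adjusted p = 0.128) passed. For genotype in white matter 8 of 10958 genes passed (0.073%), all lower in Rag1KO relative to the neighbours. None passed without the single cell that held Chgb: the differences of Nnat and Cxcl14 shrank, that of Meg3 changed sign and Chgb could not be tested, whereas those of Sgk1, Tppp3, Arl4d and Gstm1 kept their size (-1.22, -1.07, -1.03 and -0.82), with adjusted p of 0.0781 to 0.0864.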

How the data were processed

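The submitters deposited raw UMI counts per gene and cell for all cells of each genotype and for the oligodendrocytes of both, with a table naming each cell's library and cluster. Per the labels, libraries were 10x 3′ v3.1 read against mm10. The submitters' processing notes name Cell Ranger 4, while the methods name another version for each genotype and batch, with cells filtered by UMIs, genes and mitochondrial share and clusters called in Seurat after integration. Doublets were not called here, and none are stated to have been removed.

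The deposited counts were summed per library over the Oligo1b cells, over Oligo1a with Oligo1c, and over other oligodendrocytes, for the 17001 genes listed for both genotypes. Of the Oligo1b cells, 11 were absent from the tables of all cells. Cells with microglial markers held at least 10 UMIs over the marker list and fewer than 3 of T cell markers. Sums were tested in edgeR 4.0.16 (quasi-likelihood, TMM, filterByExpr, R 4.3.3) over the 4 groups, with DESeq2 1.42.0, no filter, other denominators, fewer groups, a limit of 20000 UMIs per cell and libraries left out as alternatives. Cell counts per cluster were tested the same way. The steps were tested on simulated counts. CPM are counts scaled to an equal total, and descriptive ratios used a pseudocount of 1 CPM. P-values measure the spread between libraries, and those of WT are pools. Where a fit left 1 WT library in a group, that group added nothing to the spread.

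Oligo1b, its gene lists and the tests were chosen with earlier results of these data known. Genes were named by size: against the other oligodendrocytes, or against Oligo1a and Oligo1c, the largest median log2 ratios among genes in 1 direction in all 8 libraries at 50 CPM or more; between groups, the largest differences among called genes with a mean of at least 10 CPM. One gene that the rule picked is not reported here. Genes called with the block, C4b, Rag1 and the genes of the single cell and of WT pool 1 were chosen after their values were seen.

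Gray and white libraries of one WT number come from the same mice, by the study's list of animals. The deviations from the group means of same-numbered libraries correlated at r = 0.34; with 2 libraries a group the crossed value is the negative of this by construction. The fit with this pairing as a block leaves 1 residual degree of freedom.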

Additional observations from a re-analysis of the deposited data

Results flagged for a closer look

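The clusters come from the same transcriptomes, so how cells were split between them can shape the differences given here. In all, 11 differences of differences passed between Oligo1b and the sum of Oligo1a and Oligo1c, by edgeR's quasi-likelihood test with the library as a block and Benjamini-Hochberg adjustment over 10958 genes. Of these, 3 concern white against gray matter in WT mice: Plin3 at 1.43 (SE 0.17, adjusted p = 0.000415), Ogdhl at 1.27 (SE 0.22, adjusted p = 0.0462) and Cd9 at -0.64 (SE 0.11, adjusted p = 0.0323). Ogdhl was at 335, 135, 301 and 66.2 CPM in WT Oligo1b and at 277, 64.7, 59.1 and 21.6 CPM in Oligo1a and Oligo1c (gray 1, gray 2, white 1, white 2), so the gap was widest in WT white matter. Cd9 was at 986, 941, 804 and 886 CPM in Oligo1b and at 1182, 1122, 1584 and 1587 CPM in Oligo1a and Oligo1c, higher in white than in gray matter in the latter and lower in Oligo1b. Without both libraries of WT pool 1, with 1 WT library left per tissue, the difference of Ogdhl was 0.56. The adjusted p over the alternatives ran up to 0.738 for Plin3, 0.904 for Ogdhl and 0.582 for Cd9.

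The other 8 concern Rag1KO against WT in white matter, all below 0. Chgb (-8.25, SE 1.46, adjusted p = 0.0425), Meg3 (-5.49, SE 1.04, adjusted p = 0.0483), Nnat (-4.45, SE 0.59, adjusted p = 0.00233) and Cxcl14 (-3.20, SE 0.55, adjusted p = 0.0306) rest on the single cell of WT white 2 described above. Without it Nnat was at -1.37 (adjusted p = 0.904), Cxcl14 at -0.83 (adjusted p = 0.957) and Meg3 at 3.56 (adjusted p = 0.983), and Chgb was not tested. Sgk1 (-1.21, SE 0.21), Tppp3 (-1.06, SE 0.19) and Arl4d (-1.02, SE 0.18), each with an adjusted p of 0.0306, were highest in WT white 1 among the Oligo1b sums: Sgk1 was at 2984 CPM in its Oligo1b cells and at 1035 CPM in its Oligo1a and Oligo1c, Tppp3 at 1245 and 398 CPM, and Arl4d at 274 and 97.8 CPM. Gstm1 (-0.81, SE 0.15, adjusted p = 0.0483) was at 502 CPM in Oligo1b of WT white 1 and at 261 to 373 CPM in the other white matter libraries. Cxcl14 lay at 4.64 and 20.3 CPM in WT and 4.11 to 7.89 CPM in Rag1KO white matter Oligo1b. Sgk1, Tppp3, Arl4d and Gstm1 stood at -1.22, -1.07, -1.03 and -0.82 without the cell that held Chgb, with adjusted p of 0.0781 to 0.0864, so their size did not rest on it although none of the 8 passed. Without both libraries of WT pool 1, Sgk1 was at -0.54, Tppp3 at -0.62, Arl4d at -0.64 and Gstm1 at -0.74. That fit leaves 1 WT library per tissue, so only the size is given.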

How the results depend on the processing

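The number of genes called depended on the fit more than the genes' direction did. For WT tissue, where 3 genes passed, DESeq2 called 6, no filter on low counts 92, the groups compared alone 0, the replicate block 42 and the fit without both libraries of WT pool 1 14, with 0 to 79 as single libraries were left out. For Rag1KO tissue (7), DESeq2 called 12, no filter 67, the block 18 (white 1 against gray 1 alone) and the fit without pool 1 14 (5 to 12 with a library left out). For the difference in tissue effect (0), no filter called 12 and the block 1 (0 to 1). For genotype (57), no filter called 264 (39 to 300). For the WT tissue difference against Oligo1a and Oligo1c (3), setting Oligo1b against all other oligodendrocytes called 14, no filter 96 and leaving out pool 1 12 (0 to 345, the highest without WT white 2). For the genotype difference against them (8), cells under 20000 UMIs gave 4, no filter 94, without pool 1 15 and without the cell that held Chgb 0 (0 to 413, the highest without WT white 2). Fits without pool 1 keep 1 WT library per tissue, so their counts rest on the spread of Rag1KO white matter alone. The cause of these moves in the counts was not tested.

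The WT tissue share was -2.16 on the log2 scale and lost its call with Oligo1 cells as denominator (-1.56); it lay between -3.04 and -1.46 with single libraries left out and at -2.24 with the block. The genotype difference of the share, 0.21 and not called, changed sign with all cells as denominator (-0.037) and without WT white 2 (-0.49) or Rag1KO white 2 (-0.041), over a range of -0.49 to 1.09. The Rag1KO tissue share lay between -2.60 and -2.12 with a library left out, and at -2.93 with the block, which is white 1 against gray 1 alone; it was -1.44 with all cells as denominator. No fit with the pairing was made for the genotype comparison or for those against Oligo1a and Oligo1c. Meg3 in the genotype difference against Oligo1a and Oligo1c ran from -5.60 to 1.39 with libraries left out, the latter without WT white 2, and turned to 3.56 without the cell that held Chgb. The fits without pool 1 and without that cell were chosen after seeing the data. The WT pool 1 sums rest on the fewest Oligo1b cells, 59 in white 1 and 73 in gray 1, and what changes could be detected at that number was not tested.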

Other observations

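Vtn, vitronectin, a gene of pericytes and of plasma protein, was at 112 CPM in the Oligo1b cells of WT gray 1 and 148 CPM in those of WT white 1. It was at most 0.88 CPM in the Oligo1b cells of the other 6 libraries, and in the same 2 libraries it was at 5.13 and 0 CPM in Oligo1a and at 1.49 and 1.66 CPM in Oligo1c. Cdkn1a, high in the same libraries, was spread otherwise: in WT gray 1 it was at 1277 CPM in Oligo1a, 478 CPM in Oligo1b and 47.6 CPM in Oligo1c, and in WT white 1 at 1012, 1335 and 4.98 CPM. Apod, a lipid-binding lipocalin, was at 23562 CPM in the Oligo1b cells of WT white 1 and at 3309 and 3467 CPM in its Oligo1a and Oligo1c cells, but also at 19262 and 20801 CPM in its Oligo2a and Oligo2c cells, while the Oligo1b cells of the other libraries had 1972 to 5784 CPM. These 3 genes were chosen after their values were seen, and their difference between the pools was not tested. With the mouse pool as a block, a fit with 1 residual degree of freedom, Apod was called between WT tissues (1.46, adjusted p = 0.00748 by edgeR), though its libraries overlapped.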
